A study of Mus musculus with 12 samples.

Results

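The Zfp genes, the mouse's numbered family of zinc finger genes, were followed through an RNA immunoprecipitation of CPEB4 in adipocytes. The members were all features whose symbol starts with Zfp and a digit, without the Zfp36 group, whose proteins bind AU-rich elements in RNA. This gave 316 of 20586 3′ UTR features, each symbol with 1 feature. All 12 libraries were made from the mouse preadipocyte line 3T3-L1, differentiated for 8 days and then given 500 µM free fatty acids (palmitic acid at 300 µM, with oleic and linoleic acid at 100 µM each) for 24 h. RNA from the CPEB4 precipitate (CPEB4 IP), RNA from a control immunoglobulin precipitate (IgG IP) and total lysate RNA (Input) had 4 libraries each. Every group had therefore had the fatty acids and the same induction until day 2 (2 µM rosiglitazone, 10 µg/mL insulin, 1 µM dexamethasone, 0.5 mM IBMX), and no cells without fatty acids were compared. Of the groups, Input alone was selected for poly(A) RNA, so a difference between a precipitate and Input also holds that difference in preparation.

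Most Zfp proteins carry arrays of cysteine and histidine zinc fingers that bind DNA, and many also carry a KRAB domain, which recruits the co-repressor Trim28 and through it histone methyltransferases and heterochromatin proteins. Many of these genes lie in clusters formed by tandem duplication and are transcribed at low levels. A smaller number have single roles in fat cell differentiation, RNA binding or ribosome quality control. CPEB4 is a cytoplasmic protein that recognises polyadenylation elements in 3′ UTRs and can lengthen or shorten the poly(A) tail of the mRNA it binds, and so raise or lower its translation.

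Totals were 1114911 to 1159188 counts for CPEB4 IP libraries, 88013 to 622976 for IgG IP libraries and 858028 to 1578084 for Input libraries. Replicates 1 and 2 and replicates 3 and 4 came with separate runs of library numbers. In each group, libraries differed less within these pairs (chi-square per degree of freedom 1.63 to 25.8) than across them (13.4 to 40.8). Input replicate 3 stood apart from the other Input libraries, and counts are given below with and without it. Of 10 adipocyte markers, such as the fatty acid carrier Fabp4 and the hormone gene Adipoq, all were tested, and their summed level in Input ranged from 11399 to 19300 CPM (counts per 1e6, scaled by TMM). Of 7 macrophage markers 1 was tested, their summed level in Input ranged from 21.0 to 60.2 CPM, and Adgre1 and Ptprc had no count in Input. Endothelial markers summed to between 0 and 71.2 CPM in Input. Of 5 muscle or neuron markers 1 was tested, and their summed level in Input was higher than that of these 2 sets, from 192 to 320 CPM.

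The Zfp genes were a small part of every library, and their share was higher in the precipitates than in 3 of the 4 Input libraries. They took 0.812%, 0.812%, 0.816% and 0.751% of the counts in CPEB4 IP replicates 1 to 4. The shares were 0.704%, 0.633%, 0.399% and 0.409% in IgG IP, and 0.296%, 0.282%, 0.752% and 0.373% in Input. All 4 CPEB4 IP libraries lay above all 4 IgG IP libraries, while Input replicate 3 held a share within the range of the CPEB4 IP libraries. One feature, the 3′ UTR of the mitochondrial synthetase Lars2, took a large part of the IgG IP counts. Without it, the Zfp share was 0.875%, 0.852%, 0.991% and 0.985% in CPEB4 IP, 0.986%, 0.900%, 1.11% and 1.11% in IgG IP, and 0.338%, 0.328%, 0.815% and 0.405% in Input. On that denominator the CPEB4 IP and IgG IP libraries overlapped, and within each pair of replicates the IgG IP libraries were at or above the CPEB4 IP libraries. These are bulk lysates, in which fewer cells of a type and less RNA per cell cannot be told apart.

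**Figure D1:**
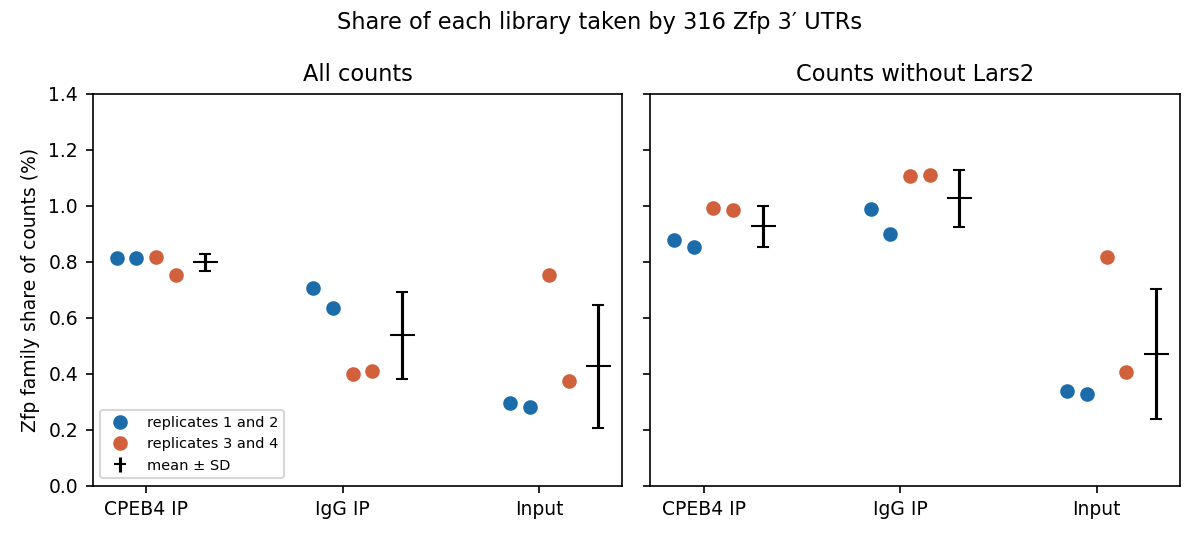
Share of each library's counts taken by the 316 Zfp 3′ UTRs, in percent, for all counts (left) and with the Lars2 feature removed from the total (right). Points are libraries, coloured by replicate pair, and bars are the mean and SD of 4 libraries. Input replicate 3, at 0.752% and 0.815%, lies far above the other Input libraries, and the order of CPEB4 IP and IgG IP differs between the panels.

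Of the 316 members, 150 passed the low-count filter and were tested among 8680 features, and 166 were not. The tested members had longer 3′ UTRs than the untested ones, with a median of 2043.5 against 862 bases. Over all tested features the median length was 1344 bases. They were also more thinly covered, with a median of 182.5 counts summed over the 12 libraries against 402 over all tested features. The filter was met through all 4 CPEB4 IP libraries and fewer than 4 of the other 8 by 20 members, through the IgG IP libraries alone by 2 and through the Input libraries alone by 7. A member that passed in this way had to be high in that group, so the direction of its difference is partly set by the filter and its count or test is no support. The values below describe the 150 tested members and not the family as a whole.

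Between the precipitates, the question was which RNAs came down with CPEB4 beyond what a control antibody brought down. Few Zfp genes passed the test. With p-values of edgeR's quasi-likelihood test adjusted over 8680 features, 1 of 150 members was higher in CPEB4 IP and none was lower, where 4.57% of all tested features were higher and 1.30% were lower. Among other features of the same length and level classes, 1.43% were higher and 0.317% lower, which is nearer to the members' share. At an unadjusted p under 0.05 there were 10 higher and 4 lower of 150 members, beside 1282 higher and 558 lower of 8680 features. DESeq2 called 2 higher and 2 lower members, and its share over all features is not given here. The median log2 fold change of the members was 0.18, beside 0.24 over all tested features. The CPEB4 IP libraries lay above all 4 IgG IP libraries for 24 members and below all of them for 5, where this held for 23.2% and 5.91% of all tested features.

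The single member called was Zfp280c (X chromosome, mm10 position 48541626 to 48543289, minus strand), a 3′ UTR of 1664 bases. It is one of the 20 members that passed the filter only through the CPEB4 IP libraries, and its values are given as a description. It had 84.6, 74.4, 40.2 and 48.9 CPM in CPEB4 IP, against 0, 15.4, 0 and 8.88 CPM in IgG IP, and no count in any Input library. The CPEB4 IP libraries were all above the IgG IP libraries, which held 5 counts in all. The log2 fold change over IgG IP was 3.39 (SE 0.90, adjusted p = 0.0422), and the level in CPEB4 IP was at least 106-fold higher than in Input, against a floor of 3 counts over the Input group. The call over IgG IP was lost without any one of the 8 precipitate libraries (adjusted p up to 0.183) and with the replicate number as a block (adjusted p = 0.0553). With that block Zfp91, at a log2 fold change of 0.91, was called in its place (adjusted p = 0.0486).

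Members with low adjusted p that missed the threshold were named after their values were seen. Zfp503, a developmental transcriptional repressor, had 165, 140.4, 127 and 113 CPM in CPEB4 IP against 18.2, 0, 40.0 and 41.4 CPM in IgG IP. Its groups did not overlap, and its log2 fold change was 2.33 (SE 0.76, adjusted p = 0.0816). Zfp667 had 89 counts in CPEB4 IP and 1 in IgG IP, a ratio of 15.6 with an exact 95% interval of 2.72 to 622 for counting error, but it too passed the filter only through the CPEB4 IP libraries. Zfp385a, which binds RNA and p53, ran the other way, with 46.2, 32.2, 35.4 and 45.2 CPM in CPEB4 IP against 78.7, 92.3, 107 and 118 CPM in IgG IP. Its CPEB4 IP libraries were all lower than its IgG IP libraries, and the fold change was -1.32 on the log2 scale with an SE of 0.45 (adjusted p = 0.0972).

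**Figure D2:**
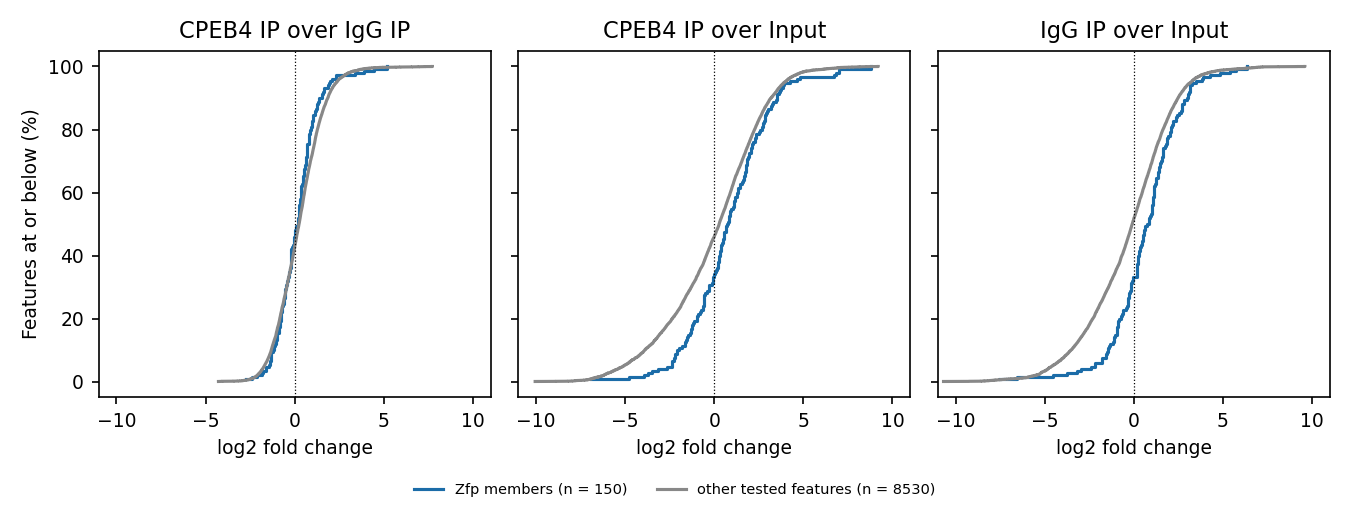
Cumulative share of features, in percent, at or below each log2 fold change, for the 150 tested Zfp members and the 8530 other tested features in each of the 3 comparisons. In CPEB4 IP over IgG IP the members' curve is the steeper one about a median of 0.18, and in both comparisons with Input the members lie to the right over most of the range, with medians of 0.74 and 0.80.

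More Zfp members were called when the 2 precipitates were fitted without Input, which lowered the biological coefficient of variation to 0.293, against 0.618 with all 12 libraries. In that fit 101 members were tested, 6 were higher and 8 were lower in CPEB4 IP, where 17.5% and 15.3% of 6358 features were higher and lower. The members' median log2 fold change was -0.13, beside 0.06 over all features of that fit. Higher in CPEB4 IP were Zfp280c (3.02), Zfp503 (1.88), Zfp608 (1.69), Zfp217 (1.26), Zfp606 (1.26) and Zfp740 (1.20) on the log2 scale. Lower were Zfp866 (-1.99), Zfp839 (-1.85), Zfp385a (-1.72), Zfp874b (-1.69), Zfp316 (-1.66), Zfp629 (-1.32), Zfp106 (-0.62) and Zfp652 (-0.60). In the filter over all 12 libraries, Zfp280c, Zfp606 and Zfp839 had passed through CPEB4 IP alone and Zfp866 through IgG IP alone. Zfp606, Zfp866, Zfp839, Zfp874b and Zfp629 are named because they were called here, after their values were seen. For Zfp839 the pattern was not the same in both replicate pairs. It had 14.1, 11.5, 21.7 and 16.6 CPM in CPEB4 IP against 6.05, 0, 84.5 and 68.1 CPM in IgG IP, so replicates 1 and 2 were higher and replicates 3 and 4 lower in CPEB4 IP.

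The authors' deposited table called the interaction of antibody and precipitation higher for 0 and lower for 3 of 312 members, beside 2.27% and 3.28% of 19051 features. None of the 3 member calls passed an adjusted p of 0.05 in that table, where 306 of 19051 features did, and Zfp553 had no adjusted p there. The authors' deposited table gave log2 values of -3.13 for Zfp553, -2.77 for Zfp771 and -1.65 for Zfp385a. Zfp553 is named because it is one of these 3.

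The comparison of CPEB4 IP with Input asks which RNAs were more or less frequent in the precipitate than in the lysate. Of the 150 members 35 were higher and 15 lower in CPEB4 IP by edgeR's quasi-likelihood test, and 27.6% and 26.3% of all tested features were higher and lower. The members' median log2 fold change was 0.74, against 0.29 over all tested features. Of the 35 higher members 10 had passed the filter only through the CPEB4 IP libraries, and of the 15 lower members 5 had passed only through the Input libraries. The CPEB4 IP libraries lay above all Input libraries for 43 members and below all of them for 15, where this held for 30.9% and 24.2% of all tested features. The IgG IP shares the same Input libraries, and its own comparison with Input gave 27 members higher and 6 lower, beside a background of 17.5% and 23.9%. Of these 27 higher members 7 had passed the filter only through the CPEB4 IP libraries. Of the 6 lower members 4 had passed it only through the Input libraries. There the members' median was 0.80, against -0.07 over all tested features, and 16 members lay above and 9 below all Input libraries, against 15.9% and 22.6%. Set side by side, 25 members were higher in both precipitates, 5 were lower in both, and none was called in opposite directions. A further 10 were called higher and 10 lower in CPEB4 IP alone, 2 were called higher and 1 lower in IgG IP alone, and 97 were called in neither. Joint counts over all tested features were not made, so no background stands beside these. The 25 and the 5 also include members that passed the filter through 1 group alone, whose direction against Input was partly set by it. The Input libraries are common to both comparisons, which makes calls in the same direction more likely. Calls in one precipitate alone do not show a difference between the precipitates, which is tested by setting CPEB4 IP against IgG IP.

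Without Input replicate 3 the counts were larger, at 60 higher and 17 lower of 160 members in CPEB4 IP and 50 higher and 10 lower in IgG IP. The shares over all features of that fit were larger too, at 34.3% higher and 28.1% lower in CPEB4 IP and 24.3% and 27.3% in IgG IP. Within replicates 1 and 2 alone, 52 members were higher and 23 lower in CPEB4 IP, and 32 were higher and 8 lower in IgG IP, of 154 tested, where 27.5% and 32.9% of all features were higher and lower in CPEB4 IP and 16.9% and 25.3% in IgG IP. Within replicates 3 and 4 alone, 24 were higher and 8 lower in CPEB4 IP, and 20 were higher and 6 lower in IgG IP, of 150 tested, where the shares over all features were 19.8% and 18.0% in CPEB4 IP and 13.5% and 13.4% in IgG IP. The members' median log2 fold change stayed above that of all features in both pairs, at 0.83 against -0.07 and 0.48 against 0.12 for CPEB4 IP over Input.

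Among genes with known roles in fat cells, 8 were listed and 6 were tested, and 3 of them were higher than Input in both precipitates and none was lower. Over all tested features 27.6% were higher and 26.3% lower than Input in CPEB4 IP, and 17.5% and 23.9% in IgG IP, and the counts of each list below stand beside these same shares. Zfp516, which drives the thermogenic gene program of brown and beige fat in mice, had 432, 361, 337 and 279.7 CPM in the CPEB4 IP libraries, 199.7, 138, 227 and 252 CPM in the IgG IP libraries, and 12.4, 17.8, 48.4 and 15.3 CPM in Input. Each precipitate library lay above every Input library. The log2 fold change over Input was 3.92 in CPEB4 IP (SE 0.45, adjusted p = 2.86e-06) and 3.14 in IgG IP (SE 0.44, adjusted p = 4.07e-05). CPEB4 IP over IgG IP gave 0.78 (SE 0.40, adjusted p = 0.282), although every CPEB4 IP library was higher than every IgG IP library. Zfp217, a zinc finger factor described in mouse adipogenesis, had 177, 153, 79.6 and 79.4 CPM in the CPEB4 IP libraries, 30.3, 46.2, 44.5 and 35.5 CPM in the IgG IP libraries, and 1.46, 14.2, 0 and 17.2 CPM in Input. The 3 groups did not overlap, and replicates 1 and 2 were the higher ones in CPEB4 IP. Its log2 fold change over Input was 3.85 in CPEB4 IP (adjusted p = 0.000539) and 2.20 in IgG IP (adjusted p = 0.0339, lost without any one of 5 of the 12 libraries).

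The third was Zfp395, whose human counterpart has a described role in adipogenesis, at 3.02 (adjusted p = 0.00268) in CPEB4 IP and 2.35 (adjusted p = 0.018, lost without 1 of the 12 libraries) in IgG IP on the log2 scale. The other tested fat cell genes were not called in any of the 3 comparisons. Zfp423, which marks and commits preadipocytes, had 8.61, 15.3, 38.6 and 31.4 CPM in the CPEB4 IP libraries, 12.1, 0, 8.89 and 20.7 CPM in the IgG IP libraries, and 10.2, 14.2, 27.6 and 51.5 CPM in Input. In both CPEB4 IP and Input its libraries of replicates 3 and 4 were above those of replicates 1 and 2. Zfp467, which favours fat over bone differentiation in mice, and Zfp638, a cofactor of C/EBP proteins, stood at log2 fold changes of -0.63 and -0.06 in CPEB4 IP over Input.

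Among genes whose proteins act on RNA or ribosomes, 7 of 9 listed were tested, and 1 was higher and 1 lower than Input in CPEB4 IP, and 2 higher and none lower in IgG IP. Zfp106, an RNA-binding protein needed to maintain motor neurons in mice, had 296, 229, 294 and 289.8 CPM in the CPEB4 IP libraries, 303, 238, 347 and 405 CPM in the IgG IP libraries, and 39.5, 54.1, 43.4 and 60.4 CPM in Input. Both precipitates were at several times the Input level and overlapped each other. The log2 fold change over Input was 2.49 in CPEB4 IP (SE 0.31, adjusted p = 6.62e-06) and 2.71 in IgG IP (SE 0.32, adjusted p = 7.33e-06). Zfp622, a factor in the assembly of the large ribosomal subunit, had 3.91, 6.14, 2.41 and 3.69 CPM in the CPEB4 IP libraries, 0, 23.1, 13.3 and 0 CPM in the IgG IP libraries, and 43.1, 51.5, 20.7 and 33.7 CPM in Input, through which alone it had passed the filter. It was lower in CPEB4 IP, with a log2 fold change over Input of -3.16 (SE 0.86, adjusted p = 0.00546). The IgG IP libraries scattered from no count to a level within the Input range (-2.19 over Input, adjusted p = 0.0723). Zfp385a was higher than Input in IgG IP alone, with a log2 fold change of 1.57 (adjusted p = 0.0115, lost without IgG IP replicate 3 or 4) and 0.25 (adjusted p = 0.657) in CPEB4 IP. Zfp598, the ubiquitin ligase that senses collided ribosomes, had log2 fold changes of -0.60 in CPEB4 IP and -0.61 in IgG IP over Input, neither called. The splicing-associated Zfp326 and Zfp830 and the double-stranded RNA-binding Zfp346 were at 0.51, 0.20 and 0.26 in CPEB4 IP over Input, also not called. Among them Zfp326 had passed the filter only through the CPEB4 IP libraries.

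Of 18 other transcription and chromatin factors listed, 15 were tested, with 6 higher and 1 lower than Input in CPEB4 IP, and 4 higher and 1 lower in IgG IP. Zfp91, whose human counterpart is a ubiquitin ligase in non-canonical NF-kB signalling, had 383, 394, 547 and 679 CPM in the CPEB4 IP libraries, 230.0, 162, 276 and 420.2 CPM in the IgG IP libraries, and 57.0, 47.0, 90.8 and 78.2 CPM in Input. Both precipitates were above Input in every library, and within each same-numbered set CPEB4 IP was above IgG IP. The log2 fold change over Input was 2.87 in CPEB4 IP (SE 0.38, adjusted p = 1.10e-05) and 2.01 in IgG IP (SE 0.37, adjusted p = 0.000462). Zfp609, which works with cohesin loading factors in neural progenitors of mice, had 123, 138, 193 and 197 CPM in the CPEB4 IP libraries, 115, 100.0, 271 and 319.6 CPM in the IgG IP libraries, and 1.46, 0, 48.4 and 8.26 CPM in Input. The precipitates overlapped, and Input replicate 3 was the highest of the Input libraries. Zfp148, a GC-box-binding factor, was at 2.74 in CPEB4 IP (adjusted p = 0.00224) and 1.95 in IgG IP (adjusted p = 0.0258, lost without either of 2 of the 12 libraries) over Input. Zfp644, a partner of histone methyltransferases, passed the filter only through the CPEB4 IP libraries and was at 3.27 in CPEB4 IP (adjusted p = 0.0202) and 3.06 in IgG IP (adjusted p = 0.043) over Input. The IgG IP call of Zfp644 was lost without any one of 9 of the 12 libraries (adjusted p up to 0.193). Zfp219 (2.57, adjusted p = 0.0234) and Zfp292 (2.20, adjusted p = 0.0456) were called over Input in CPEB4 IP alone. The calls of Zfp219, Zfp292 and Zfp644 over Input in CPEB4 IP were lost without any one of 3, 7 and 2 of the 12 libraries.

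Zfp703, a transcriptional co-repressor amplified in human breast cancers, was the listed factor that was lower than Input. It had 247, 249, 153 and 159 CPM in the CPEB4 IP libraries, 151, 100.0, 84.5 and 121 CPM in the IgG IP libraries, and 411, 572, 259.7 and 333 CPM in Input. Input was the highest group and IgG IP the lowest, with no overlap between groups. The log2 fold change over Input was -0.96 in CPEB4 IP (SE 0.33, adjusted p = 0.0232) and -1.78 in IgG IP (SE 0.36, adjusted p = 0.000838). Over IgG IP, CPEB4 IP was at 0.82 (SE 0.35, adjusted p = 0.183). The CPEB4 IP call was lost without any one of 7 of the 12 libraries. Zfp143, Zfp260, Zfp281, Zfp335, Zfp462, Zfp608, Zfp687 and Zfp704 were not called in any of the 3 comparisons with all 12 libraries. Zfp608 was called between the precipitates in the fit without Input, and without Input replicate 3 Zfp260 (2.69, adjusted p = 0.00869) and Zfp281 (1.78, adjusted p = 0.00294) were called higher in CPEB4 IP over Input. With all libraries their log2 fold changes in CPEB4 IP over Input ran from -1.80 for Zfp335, a subunit of a histone methyltransferase complex, to 1.86 for Zfp260. Of these, Zfp335 had passed the filter only through the Input libraries, so its direction was partly set by the filter. The 3′ UTRs of Zfp335 and Zfp687 overlap those of genes on the opposite strand (Pcif1 and Pi4kb), so their reads may be shared.

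KRAB repressors had the lowest share of tested genes among the 4 role lists. Over the whole family 150 of 316 members were tested. Of 16 listed, 13 were in the table and 7 were tested, and by edgeR with all libraries none was higher than Input in either precipitate, with 2 lower in CPEB4 IP and 1 lower in IgG IP. With 26.3% and 23.9% of all tested features lower, these counts of 7 are near the background, and both genes that were lower had passed the filter only through the Input libraries. Zfp263 had 5.48, 5.37, 5.63 and 2.77 CPM in CPEB4 IP, no count in IgG IP, and 21.2, 32.8, 20.7 and 26.7 CPM in Input. It was lower than Input in both precipitates, by 2.36 on the log2 scale in CPEB4 IP (adjusted p = 0.0167, lost without any one of the 4 CPEB4 IP libraries) and at least 7.26-fold lower in IgG IP (adjusted p = 0.00155). Zfp110, which takes part in neurotrophin receptor signalling, had 0.783, 4.60, 2.41 and 0.923 CPM in the CPEB4 IP libraries, 12.1, 7.69, 13.3 and 0 CPM in the IgG IP libraries, and 19.7, 25.7, 74.1 and 21.6 CPM in Input. Its log2 fold change was -3.91 (adjusted p = 0.00187) in CPEB4 IP over Input.

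Zfp568, which silences a placental promoter of Igf2 in mouse embryos, was set by 1 Input library. It had 60.3, 53.7, 63.5 and 71.1 CPM in the CPEB4 IP libraries, 24.2, 15.4, 17.8 and 50.3 CPM in the IgG IP libraries, and 0.731, 2.66, 98.7 and 0.635 CPM in Input. With all libraries its log2 fold change in CPEB4 IP over Input was 1.29 (adjusted p = 0.313), and without Input replicate 3 it was 5.54 (adjusted p = 2.2e-06). Zfp354c, Zfp746, Zfp30 and Zfp68 were not called with all libraries, and Zfp30 had passed the filter only through the CPEB4 IP libraries. Without Input replicate 3, Zfp354c, which had passed the filter only through the IgG IP libraries, was called higher in both precipitates (2.82 in CPEB4 IP and 4.21 in IgG IP) and Zfp746, a repressor of the coactivator PGC-1alpha, in CPEB4 IP (1.76).

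**Figure D3:**
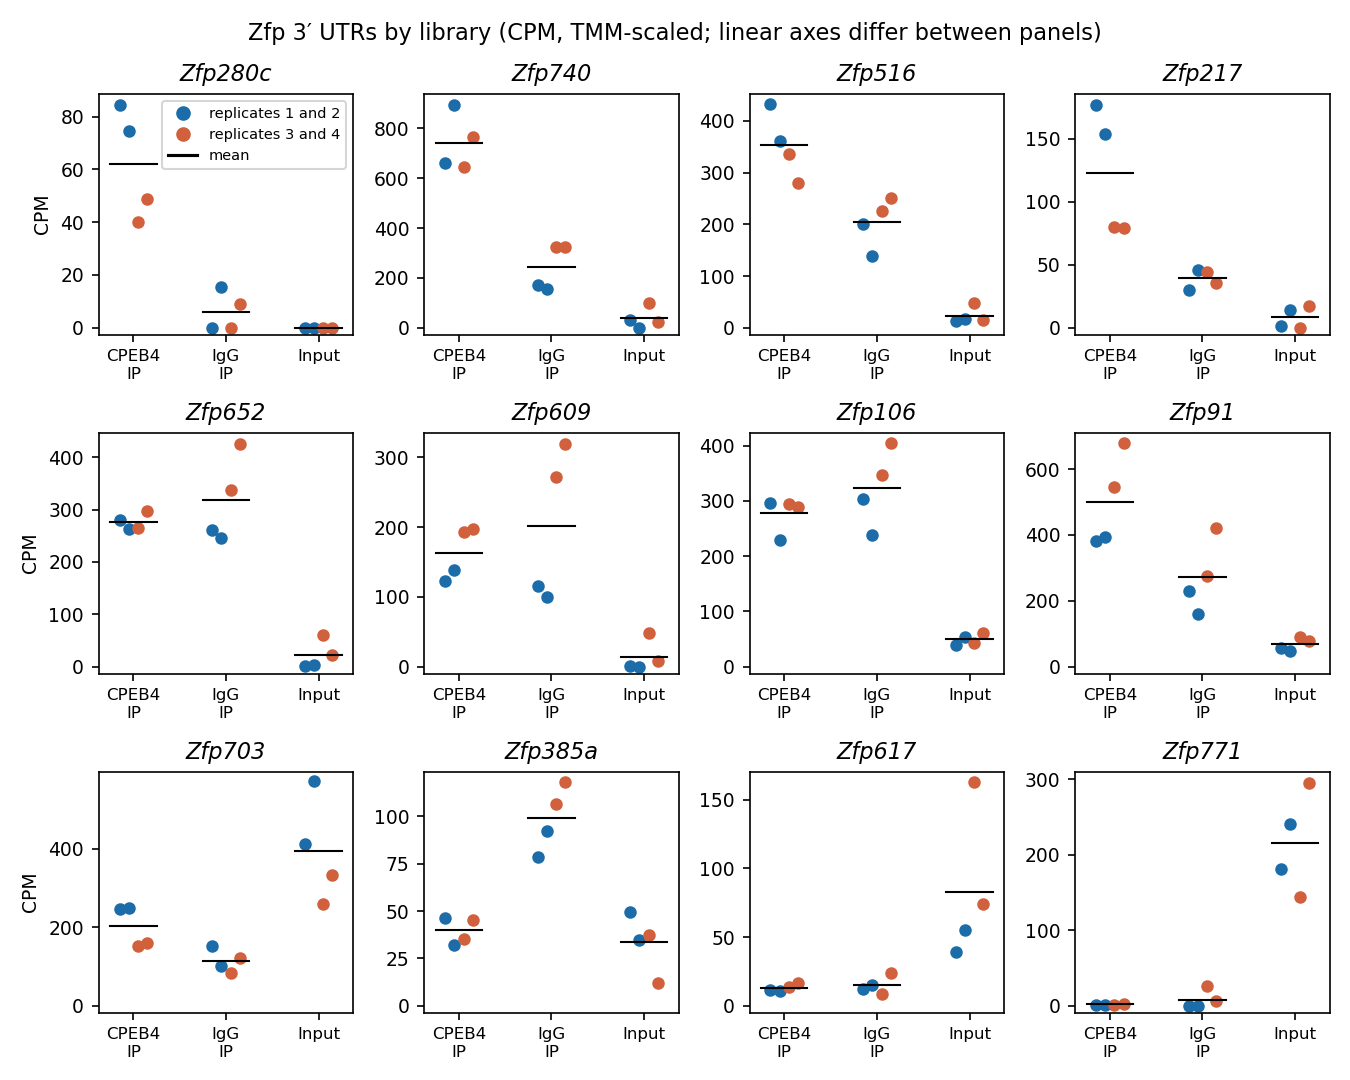
CPM (counts per 1e6, scaled by TMM) of 12 Zfp 3′ UTRs in every library, with CPEB4 IP, IgG IP and Input from left to right, points coloured by replicate pair and bars at the mean of 4 libraries. The linear axes differ between panels. Zfp280c has no Input count, Zfp516, Zfp652, Zfp609, Zfp106 and Zfp91 are high in both precipitates, Zfp385a is highest in IgG IP, and Zfp617 and Zfp771 are highest in Input.

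The members with the largest fitted increases over Input included several with no role given here. Zfp740 (chromosome 15, mm10 position 102212686 to 102215606, plus strand) had 659, 895, 644 and 766 CPM in the CPEB4 IP libraries, 169, 154, 325 and 323 CPM in the IgG IP libraries, and 30.0, 0, 99.7 and 24.1 CPM in Input. The 3 groups did not overlap. Its log2 fold change over Input was 4.28 in CPEB4 IP (SE 0.79, adjusted p = 0.000279) and 2.68 in IgG IP (SE 0.75, adjusted p = 0.00917). CPEB4 IP over IgG IP gave 1.59 (SE 0.71, adjusted p = 0.206), and 1.20 (adjusted p = 0.00394) in the fit of the precipitates alone. Zfp652 (chromosome 11), with a 3′ UTR of 8294 bases, had 279, 263, 265 and 297 CPM in the CPEB4 IP libraries, 260.3, 246, 338 and 426 CPM in the IgG IP libraries, and 2.19, 3.55, 61.2 and 21.6 CPM in Input. The precipitates overlapped and both were above Input, at 3.65 in CPEB4 IP (adjusted p = 0.000375) and 3.87 in IgG IP (adjusted p = 0.000447). Zfp961, Zfp319, Zfp46, Zfp507 and Zfp664 were also called higher in both precipitates, with log2 fold changes over Input from 2.67 (Zfp664) to 4.82 (Zfp961) in CPEB4 IP and from 2.80 (Zfp664) to 4.29 (Zfp319) in IgG IP. Of these, Zfp319 had passed the filter only through the CPEB4 IP libraries.

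Zfp146, Zfp229, Zfp560 and Zfp667 had no count in Input and passed the filter only through the CPEB4 IP libraries, like Zfp280c, and their fold changes are lower bounds against a floor of 3 counts over the Input group. In CPEB4 IP they were at least 24.2, 29.0, 26.6 and 30.7-fold higher than in Input. In IgG IP, Zfp146, Zfp229, Zfp560 and Zfp280c were at least 19.7, 13.8, 7.90 and 9.87-fold higher. The 4 counts of Zfp560 in IgG IP came from replicate 4 alone, and its call there was lost without that library. With these members at their bounds the median log2 fold change of the 150 members was again 0.74 in CPEB4 IP and 0.80 in IgG IP.

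At the other end stood Zfp771 (chromosome 7, mm10 position 127254618 to 127254803, plus strand), with a 3′ UTR of 186 bases. It had 1.57, 0.767, 1.61 and 2.77 CPM in the CPEB4 IP libraries, 0, 0, 26.7 and 5.92 CPM in the IgG IP libraries, and 180.5, 241, 144 and 295 CPM in Input. Both precipitates were far below every Input library, through which alone it had passed the filter, as had Zfp385c and Zfp414. The log2 fold change over Input was -6.92 in CPEB4 IP (SE 0.71, adjusted p = 9.74e-07) and -4.54 in IgG IP (SE 0.68, adjusted p = 7.96e-05). Zfp617 had 11.7, 10.7, 13.7 and 16.6 CPM in the CPEB4 IP libraries, 12.1, 15.4, 8.89 and 23.7 CPM in the IgG IP libraries, and 39.5, 55.0, 163 and 74.3 CPM in Input. The precipitates overlapped and were both below Input, at -2.64 in CPEB4 IP (adjusted p = 0.00065) and -2.41 in IgG IP (adjusted p = 0.00386). Zfp385c was lower in both as well (-3.47 and -3.75), but its 3′ UTR overlaps that of Nkiras2 on the opposite strand, so its reads may be shared. Zfp414, with 173 bases, was at least 3.66-fold lower in IgG IP, where it had no count (adjusted p = 0.0116). Zfp707 had 3 counts in CPEB4 IP and 100 in Input, a ratio of 0.0311 with an exact 95% interval of 0.0063 to 0.0934.

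Zfp180, Zfp316 and Zfp324 were called lower in CPEB4 IP, at -2.28, -2.21 and -2.38 over Input. The call of Zfp316 was lost without any one of 4 of the 12 libraries, and without Input replicate 3 its log2 fold change was -0.51 (adjusted p = 0.449), and the call of Zfp324 was lost without any one of 9 of the 12 libraries. Of the 10 members with the highest mean CPM in Input, Zfp706, Zfp451 and Zfp651 were called in no comparison with all 12 libraries, and without Input replicate 3 Zfp451 was called higher in CPEB4 IP over Input (2.09, adjusted p = 0.0129). Zfp706 had 266, 260.2, 142 and 149.5 CPM in the CPEB4 IP libraries, 212, 185, 62.3 and 115 CPM in the IgG IP libraries, and 372, 302, 184 and 148 CPM in Input. In each group its replicates 1 and 2 were above replicates 3 and 4, and the groups overlapped.

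The length of the 3′ UTR went with the difference from Input in all tested features, and in the Zfp genes to a lesser degree. Members under 500 bases (n = 9) had a median log2 fold change of -1.53 in CPEB4 IP over Input and those of 2000 bases up to 4000 (n = 61) had 1.20, against -3.13 and 1.25 in the other features. In IgG IP over Input the same classes of members had -1.03 and 1.36, against -3.08 and 1.02 in the other features. Spearman's rho between length and log2 fold change across genes was 0.25 in CPEB4 IP over Input for the 150 members and 0.48 for the 8530 others, and 0.32 and 0.59 in IgG IP over Input. In CPEB4 IP over IgG IP it was -0.02 for the members and -0.01 for the others. These correlations are descriptions across genes, which share their libraries and are not independent replicates.

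**Figure D4:**
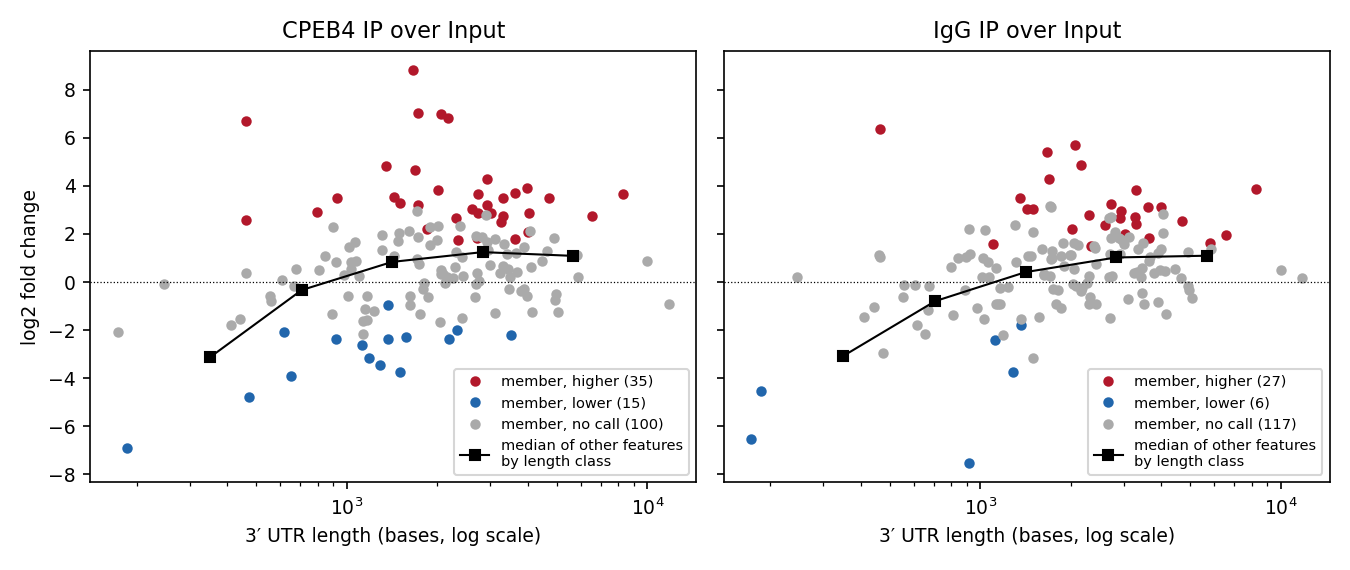
Log2 fold change over Input of the 150 tested Zfp members against the length of their 3′ UTR (bases, log scale), for CPEB4 IP (left) and IgG IP (right), coloured by call. Squares are the medians of the other tested features in 5 length classes, drawn at the middle of each class. Both precipitates show lower values in short 3′ UTRs, and the members under 500 bases lie mostly above the squares.

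Set beside features of the same length and mean level over all libraries, the Zfp genes had a median difference near 0 between the precipitates and above 0 over Input. Each member was set beside all other tested features in its class of length (5 classes) and mean level (4 classes), and a class held between 119 and 661 such features. The median difference of a member from its class median was 0.02 in CPEB4 IP over IgG IP, with 77 members above and 73 below. In CPEB4 IP over Input it was 0.21, with 84 above and 66 below, and 23.3% of members were called higher against 24.9% of their classes. In IgG IP over Input it was 0.33, with 87 above and 63 below, and 18.0% were called higher against 16.8%. Calls of lower members were at 10.0% against 12.0% in CPEB4 IP and at 4.00% against 7.67% in IgG IP. With classes drawn by length and the level in Input alone, the differences over Input turned to -0.59 in CPEB4 IP and -0.47 in IgG IP, so the sign depended on which level was matched. In CPEB4 IP over IgG IP those classes gave -0.19, with 61 members above and 89 below.

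The Zfp members varied more between Input libraries than other tested features. An Input library without any count beside another with 10 counts or more was found for 68 of 150 members (45.3%), against 32.3% of the other tested features. The same pattern was seen for 2 members (1.33%) in CPEB4 IP against 1.08% of the others, and for 14 members (9.33%) in IgG IP against 3.04%. The median coefficient of variation of the members was 28.8% in CPEB4 IP, 61.8% in IgG IP and 102.3% in Input, beside 29.1%, 54.7% and 68.3% for the others. The members' lower counts move with this difference, and their part in it was not tested.

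The co-repressor machinery with which KRAB proteins work and other zinc finger families were counted as background. Of 16 co-repressor genes 11 were tested, with 4 higher and 3 lower than Input in each precipitate. In CPEB4 IP over IgG IP 1 was higher and none lower, beside 4.57% and 1.30% of all tested features. Over Input in CPEB4 IP, the heterochromatin genes Cbx3 (2.73) and Cbx5 (2.96), the DNA methyltransferase Dnmt3a (2.12) and the remodeler Smarcad1 (6.94) were higher. The histone methyltransferase Setdb1 (-3.59) and the remodelers Chd3 (-2.56) and Chd4 (-1.72) were lower. In IgG IP over Input, the same 4 were higher, and Setdb1, Chd4 and the histone deacetylase Hdac1 were lower. The shares over all tested features for these counts over Input and those that follow were 27.6% higher and 26.3% lower in CPEB4 IP and 17.5% and 23.9% in IgG IP. Of 41 Zbtb genes 31 were tested, with 14 higher and 3 lower in CPEB4 IP over Input, and 6 higher and 2 lower in IgG IP over Input. Of 27 Zscan and Zkscan genes 8 were tested, with 3 higher in CPEB4 IP and 5 higher in IgG IP over Input. Of 16 Zc3h genes, which encode RNA-binding zinc fingers, 13 were tested, with 3 higher in CPEB4 IP and 2 higher in IgG IP.

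The Zfp genes that went untested were not spread evenly over the genome. Chromosome 7 held 74 members, chromosome 17 held 35 and chromosome 13 held 33, together 44.9% of the family against 16.9% of all features. On these 3 chromosomes 33.1% of 142 members were tested, against 59.2% of the other 174. Over the whole genome 8680 of 20586 features were tested. The tested share of all features on these 3 chromosomes is not given here, so the difference cannot be called particular to the family. The 166 untested members had 1930 counts in CPEB4 IP, 541 in IgG IP and 3080 in Input, and 4 had no count in any library. No count was found for 10 of them in CPEB4 IP, 37 in IgG IP and 43 in Input, where IgG IP had the fewest reads. The highest count in a single library was 19 in CPEB4 IP, 8 in IgG IP and 62 in Input. Zfp524 and Zfp358, named after their values were seen, had 0 and 1 counts in CPEB4 IP, 0 and 1 in IgG IP, and 114 and 113 in Input, with 3′ UTRs of 46 and 73 bases. Zfp712 had 28 counts in CPEB4 IP and none in IgG IP or Input, and is also named after its values were seen.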

How the data were processed

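Per the labels, RNA was measured in 12 libraries of 3T3-L1 adipocytes, 4 per group, prepared with 12 or 18 PCR cycles, and the replicates are not said to be separate cultures. The p-values therefore reflect only how far these libraries spread, which may be technical. The authors deposited raw read counts per 3′ UTR on mm10. The submitters' processing notes list DESeq2 1.22.1, featureCounts, Bowtie2 2.2.2 and Bowtie 1.2.3; their order, the annotation and the strand setting are not given in the sources used here. The authors deposited their own comparisons in the same table, whose log2 fold changes, adjusted p-values and calls were read as scores because the columns also hold text. The deposited log2 normalised counts were not used.

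The deposited counts went into edgeR 4.0.16 (R 4.3.3): filterByExpr (minimum count 10, minimum total 15), TMM, and 1 quasi-likelihood model of all 12 libraries with a coefficient per group, at a Benjamini-Hochberg adjusted p of 0.05 over 8680 features. A standard error is the size of the log2 fold change over the root of F. Fold changes used a prior count of 0.125, and the procedure was tested on simulated data. DESeq2 1.42.0 was an alternative. Bounds use 3 counts over a group, and intervals are exact (95%). Both cover only counting error, because PCR reads are not independent molecules. In 1 library 3 counts correspond to between 1.91 and 23.1 CPM.

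The members and gene lists were chosen with earlier results of these data known. The text names, per comparison, up to 10 members with the largest rise and 10 with the largest fall among those past the threshold and of the same sign in all 4 same-numbered replicates, the tested members of 4 role lists, and the 10 highest in Input. Same-numbered libraries deviated together, with correlations from 0.15 to 0.29 between CPEB4 IP and IgG IP, from 0.18 to 0.26 between CPEB4 IP and Input, and from 0.05 to 0.15 between IgG IP and Input. Libraries of another number in the same library set had similar values, in the same order 0.10 to 0.23, 0.12 to 0.27 and 0.04 to 0.10. Across the library sets all correlations were negative, so much of this went with the library set and not the replicate number. Alternatives were the scaling, the filter, the test, the groups fitted, blocks for replicate and library set, each pair of replicates alone, each library left out, overlapping features left out, and thinning to the IgG IP totals. No sequences were printed, and a planned description by zinc finger content was not run because no protein table was used here.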

Additional observations from a re-analysis of the deposited data

Results flagged for a closer look

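Among 188 groups of 4 libraries, 20 had a library far from the other 3. The rule's nominal rate of about 1 in 20 groups is for normally distributed values. Many members have few counts, and a group with counts in only 1 library always meets the rule, so the 20 are not read against that rate. Most of the 20 were in Input. Input replicate 3 stood high for Zfp110 (74.1 CPM), Zfp281 (116 CPM), Zfp316 (204 CPM), Zfp354c (23.7 CPM), Zfp516 (48.4 CPM), Zfp568 (98.7 CPM) and Zfp609 (48.4 CPM). Input replicate 4 stood high for Zfp46 (17.2 CPM), Zfp467 (47.7 CPM), Zfp598 (28.6 CPM), Zfp606 (29.2 CPM) and Zfp961 (5.08 CPM) and low for Zfp707 (5.72 CPM), and Input replicate 1 stood high for Zfp644 (8.77 CPM). In IgG IP, replicate 4 stood high for Zfp560 (11.8 CPM) and Zfp667 (2.96 CPM), and replicate 2 stood low for Zfp961 (15.4 CPM). In CPEB4 IP, replicate 2 stood low for Zfp106 (229 CPM) and replicate 4 for Zfp263 (2.77 CPM), and replicate 4 also held the lowest Zfp share of counts, at 0.751%. Lars2 took 23.7% of the counts of CPEB4 IP replicate 4. Without Lars2 the Zfp share there was 0.985%, beside 0.875%, 0.852% and 0.991% in CPEB4 IP replicates 1 to 3, so it was no longer the lowest.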

How the results depend on the processing

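In CPEB4 IP over IgG IP, the 1 member called higher became 0 with DESeq2 size factors, with a mean count of at least 50, in replicates 3 and 4 alone, with overlapping features left out and after thinning to the IgG IP totals (the first of 20 random draws), 2 with library totals, with DESeq2 and with the library set as a block, 3 without a low-count filter and 6 with only the groups compared. The 0 members lower became 1 with DESeq2 size factors, with a mean count of at least 50 and after thinning, 2 with DESeq2 and 8 with only the groups compared. In CPEB4 IP over Input, the 35 higher became 14 with a mean count of at least 50 and 20 after thinning, and the 15 lower became 2 in both, 23 in replicates 1 and 2 alone and 8 in replicates 3 and 4 alone. In IgG IP over Input, the 27 higher became 12 with a mean count of at least 50 and 11 with only the groups compared, and the 6 lower became 2, 10 with DESeq2, 10 with overlapping features left out and 2 after thinning. Thinning depends on the random draw: over 20 draws, added after seeing the data, it gave 0 to 1 higher and 0 to 1 lower in CPEB4 IP over IgG IP, 15 to 22 and 2 to 4 in CPEB4 IP over Input, and 15 to 22 and 2 to 3 in IgG IP over Input. A mean count of at least 50 and thinning leave fewer features or counts, and the other causes were not tested. The number of tested members and the share of all features called differ between fits and are not given beside these counts. A smaller or larger count is therefore not read as a change of the members relative to other features. Leaving out 1 replicate or library gave 0 to 4 higher and 0 to 1 lower in CPEB4 IP over IgG IP, 25 to 60 and 9 to 18 in CPEB4 IP over Input, and 15 to 50 and 6 to 10 in IgG IP over Input; without IgG IP replicate 4 the last had 16 higher. With the replicate block the counts were 1 and 0, 45 and 13, and 28 and 7; it moved no count by over 1.5 times, with Zfp91 called in place of Zfp280c in the first. Classes by the level in Input gave median differences of -0.59 in CPEB4 IP and -0.47 in IgG IP over Input, and -0.19 in CPEB4 IP over IgG IP. Zfp281 in IgG IP over Input turned to 1.22 (adjusted p = 0.0495) without Input replicate 3, against -0.17 without a call with all libraries, and lay between -0.80 and 1.22 when 1 replicate or library was left out. Choosing the widest or summed feature per gene changed nothing, since each symbol had 1. The 88013 counts of the smallest IgG IP library limit what could be detected for members at a few CPM.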
